A study of Danio rerio with 18 samples.

Results

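The comparison described here sets GFP-positive cells of the central nervous system (CNS) from Dicer-mutant zebrafish embryos against the GFP-negative cells of the same mutant line. Its members are the 3 arrays of mutant CNS cells, titled MZ_124_GFP_pos, and the 3 arrays of the mutant rest of the body, titled MZ_124_GFP_neg, which are 6 of the 18 arrays of the series. Of the 15617 probe sets on each array, 10795 have a single gene symbol. Probe sets without a single symbol, other than controls, were tested with them. The labels give the line as a Dicer mutant that carries a miR-124 GFP reporter, and both fractions share that genotype and that reporter. The abbreviation MZ is not spelled out in the labels, and neither the Dicer allele nor the promoter of the reporter is given there. For reference, the same sort of a wild-type line with the miR-124 reporter, 3 arrays of wild-type CNS cells and 3 arrays of the wild-type rest, is given beside the mutant values. These wild-type samples share no array with the mutant samples. The other 6 arrays are a second wild-type line, with 3 arrays of GFP-positive muscle cells titled wt_206_GFP_pos and 3 of the rest of the body titled wt_206_GFP_neg. They enter only the estimate of spread that all groups share, the filter, and the choice of the brightest probe set of each gene. All embryos were sorted by flow cytometry at 14 to 16 somites after incubation at 28 °C, and 100 ng of total RNA was labelled per sample. The labels call the 3 arrays of a group biological replicates and do not say how many embryos went into each.

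Most microRNAs reach their mature form only after Dicer, a ribonuclease, has cut their hairpin precursors, so an animal without it loses most of them. miR-124 is among the most abundant microRNAs of vertebrate neurons and is used as a mark of neural tissue. At the stage sampled, the zebrafish neural tube holds mostly dividing progenitors with the first differentiated neurons among them. The mutant rest holds everything else that was sorted, which in an embryo of this age includes muscle, somites and tailbud, blood, vessels, heart, skin, notochord, gut and kidney precursors.

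Values are Affymetrix intensities on a linear scale, scaled per array by the authors with MAS5. Detection calls were not used here, so values near 0 have only a place near the bottom of the scale. A difference between the fractions is given as the log2 fold change of mutant CNS cells over mutant rest, computed on intensity + 16, with its standard error (SE). This added constant makes the changes of dim genes smaller than they are on the intensity scale. Adjusted p-values come from limma's moderated test over 9548 features (the brightest probe set of each gene, and the probe sets with no single symbol) with Benjamini-Hochberg adjustment, and a gene is said to rise or fall where that value is under 0.05. With 3 arrays a group, the smallest two-sided p of an exact permutation test is 0.1, which is why single genes were left to the fit. In sorted pools, fewer cells of a type and less RNA per cell cannot be told apart, which holds for every difference below.

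The median intensity per array lay between 31.1 and 45.2 over the 18 arrays. In the mutant groups the lowest correlation of each array within its group was 0.985 to 0.990. The median SD between replicates on the log2 scale was 0.134 in mutant CNS cells and 0.142 in the mutant rest. It was 0.143 in wild-type CNS cells and 0.223 in the wild-type rest, where the lowest correlation of each array within its group was 0.962 to 0.966. The fit shares its spread over all groups, so wild-type and interaction p-values do not carry the wider spread of the wild-type rest in full. The replicate numbers of the mutant line behaved as pairs: residuals of same-numbered arrays correlated at 0.104, 0.275 and 0.297, and each of the 6 lay nearest to the array that shares its number. Among the mutant CNS arrays, replicate 1 held the most muscle, red blood cell, endothelial, notochord and epidermal marker RNA. Among the mutant rest arrays, replicate 2 held the most neural RNA and the least globin RNA. The transcript of dicer1 itself had intensities of 110.1, 209.3 and 100.7 in mutant CNS cells, against 92.1, 116.9 and 71.4 in the mutant rest. The 2 fractions overlapped, and the gene did not pass (log2 fold change 0.47, SE 0.26, adjusted p = 0.284). Against the wild-type line, dicer1 was lower by limma's test, with a log2 difference of -0.81 (adjusted p = 0.022) in mutant CNS cells. In the mutant rest the difference was -0.90 (adjusted p = 0.0117). The labels do not give the allele, so they name no direction for this transcript.

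The GFP-positive label was checked against markers. The 4 CNS markers given with the comparison, mab21l1, otx1, lhx5 and her4.5, were taken from earlier results of these data and so cannot test it. Their intensities summed to 2052.6, 2196.9 and 2520.4 in mutant CNS cells, against 336.8, 540.6 and 464.7 in the mutant rest. A neural set of 6 genes (sox2, sox3, sox19a, sox19b, elavl3 and zic1) summed in mutant CNS cells to 228% of the mutant rest. Muscle markers stood at 3.82% of the mutant rest, globin and heme markers at 0.821%, notochord markers at 16.1%, the pronephric marker at 10.5%, endothelial markers at 25.6%, myeloid markers at 8.2% and the hatching gland marker at 76.7%. The sum of 5 epidermal and periderm markers (krt4, krt5, cldni, epcam and tp63) was 76.7% of the mutant rest, and the neural crest sum (sox10, foxd3 and crestin) was 143%. The GFP-positive fraction thus held neural RNA and little muscle or blood RNA. Its epidermal and crest marker sums were of the same order as those of the mutant rest. The excess in the crest sum came from sox10, since foxd3 was lower in mutant CNS cells and crestin differed little, and neither of these passed. The pronephric value rests on 1 gene, cdh17, and the hatching gland value on 1 gene, cd63. The myeloid value rests mostly on cebpa, since lcp1 (log2 fold change -0.01) and spi1b did not pass. In wild-type CNS cells the epidermal sum was 14.6% of the wild-type rest. Of the fixed markers, tnnt3a, mpx, col8a1a, pax8 and slc20a1a were below the filter and cdh5, he1.1 and ctslb were not on the list of probe sets. The calls of sox3 (log2 fold change 0.82, adjusted p = 0.0489), sox19b (0.56, 0.0303), elavl3 (1.01, 0.0301) and kdrl (-1.46, 0.0206) were lost without at least 4 of the 6 mutant arrays in turn, where their adjusted p reached 0.165, 0.119, 0.200 and 0.132. With the replicate number as a block, sox3 had an adjusted p of 0.0517. Of the 3 probe sets of sox3 and the 4 of elavl3, 1 each passed when all probe sets were tested, with log2 fold changes over the probe sets of 0.38 to 1.89 and of 0.37 to 1.01.

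In all, 1482 of 9548 features (15.5%) passed the test between mutant CNS cells and mutant rest, of which 620 were higher (6.49%) and 862 lower (9.03%) in CNS cells. Among the 6831 features with a gene symbol, 405 were higher (5.93%) and 621 lower (9.09%). The changes were lopsided in size. Of the calls, 623 were at least 2-fold (6.52% of all features), 201 upward and 422 downward. Called changes of at least 4-fold were 13 upward and 130 downward, and all 63 called changes of at least 8-fold were downward. The smallest called change was 0.34 on the log2 scale, against a median SE of 0.17. Of the called features, 1471 had groups of arrays that did not overlap, which over all features was true of 3695 (38.7%). In 1478 the sign was the same in all 3 numbered pairs. Both counts come from the arrays that gave the calls, so they are no separate support. Fitted on the 6 mutant arrays alone, with the replicate number as a block, the test called 2670 features, 1291 higher and 1379 lower.

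The 15 largest rises among genes with a name were of genes known from the neural plate and brain. Ranked with them, by a log2 fold change of at least 1.88, were 6 further features, 5 probe sets without a single symbol and si:ch211-132d3.4, which carries only a clone name. It had 356.2, 416.6 and 333 in mutant CNS cells, against 37.8, 48.4 and 48.7 in the mutant rest (log2 fold change 2.66, SE 0.21, adjusted p = 1.26e-08). That gene falls outside the naming rule and was chosen after its values were seen. mab21l1, which encodes a nucleotidyltransferase-fold protein needed for eye and brain development, had intensities of 234.7, 346.6 and 317.9 in mutant CNS cells, against 24.1, 63.3 and 61 in the mutant rest (log2 fold change 2.32, SE 0.32, adjusted p = 1.56e-05). otx1, a homeodomain factor of the forebrain and midbrain, measured 952.1, 1137.1 and 1021.1 in mutant CNS cells and 176.7, 278.3 and 158.8 in the mutant rest. Groups of arrays that do not overlap were a condition for being among these 15 genes. In both mab21l1 and otx1 the highest of the mutant rest arrays was replicate 2. A second probe set of otx1 also passed, with a log2 fold change of 0.86. nr2e1, the tailless nuclear receptor of neural stem cells, read 145.7, 215.2 and 152.9 in mutant CNS cells, against 24.8, 26.7 and 19 in the mutant rest (log2 fold change 2.23, SE 0.18, adjusted p = 9.48e-09). lhx5, a LIM homeodomain factor of the forebrain, read 307.3, 255.4 and 318 in mutant CNS cells, against 57.9, 57.8 and 40.3 in the mutant rest (log2 fold change 2.19, adjusted p = 8.24e-09). The other eleven were en2b, pax6a, her4.5, sox21b, otx2b, mab21l2, en2a, her4.2, zic6, her3 and sox21a, with log2 fold changes between 1.88 and 2.18.

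**Figure D1:**
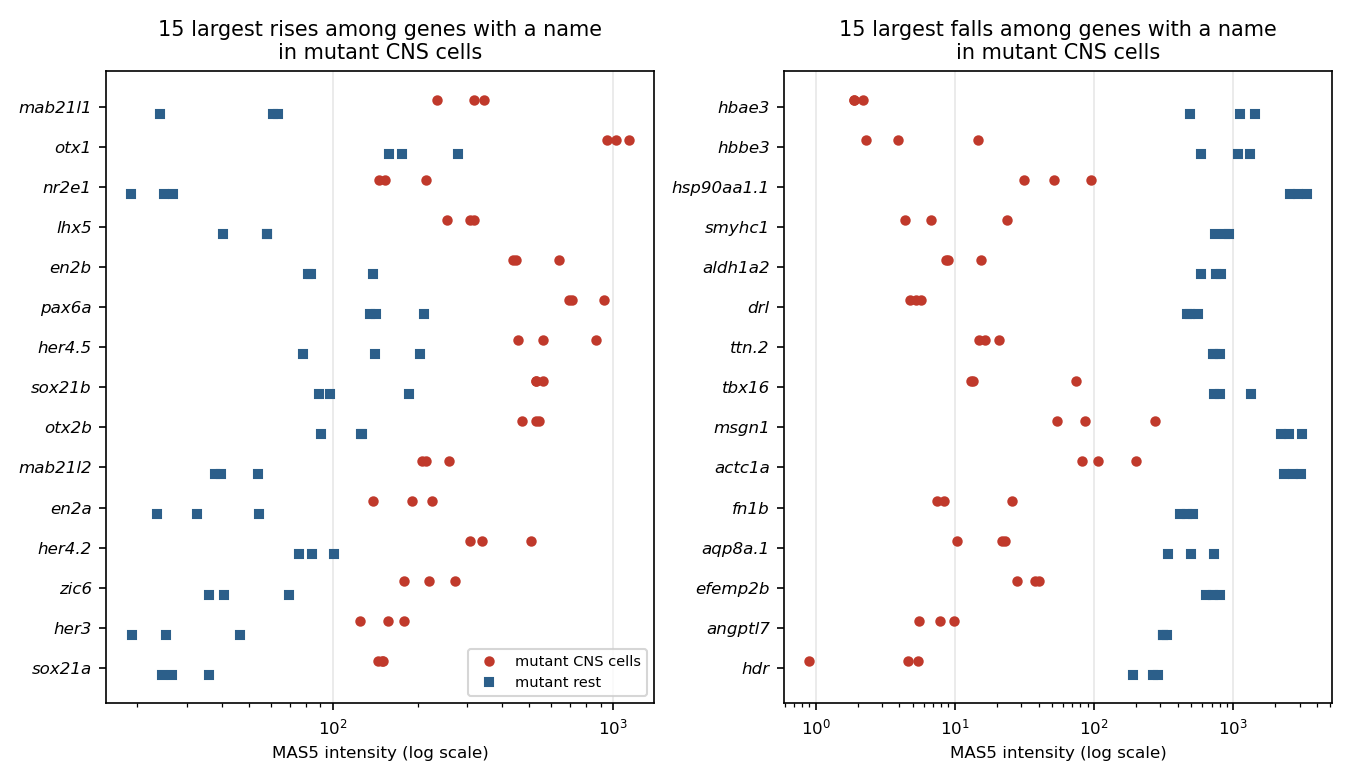
Intensity on each of the 6 mutant arrays (log scale) for the 15 named genes with the largest rises and the 15 with the largest falls, clone names and probe sets without a symbol left out, in mutant CNS cells (circles, 3 arrays) against mutant rest (squares, 3 arrays). Groups that do not overlap were a condition for being shown, so that separation is not a result. The falls span a far wider range than the rises: hbae3 lies at about 2 in mutant CNS cells and at 493.4 to 1433.8 in the mutant rest.

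The forebrain and eye field list, 31 tested factors, had 18 members higher (58.1%) and 1 lower (3.23%), where 6.49% and 9.03% of all features were. Its median log2 fold change was 0.77 against 0.01 over all features. pax6a, a paired homeodomain factor of forebrain, eye and hindbrain, had 692.3, 926.7 and 712.8 in mutant CNS cells, against 135.7, 210.9 and 141.6 in the mutant rest. otx2b, which patterns the forebrain and midbrain, had 472.3, 544.3 and 529.3 in mutant CNS cells, against 125.3, 126.7 and 90.2 in the mutant rest. six3a, a factor of the anterior forebrain, rose by 1.87 on the log2 scale (SE 0.18, adjusted p = 1.75e-07), and fezf2, a forebrain zinc finger factor, by 1.53 (SE 0.15, adjusted p = 2.01e-07). The retinal and eye field genes six6b (1.26), pax6b (1.09) and barhl2 (1.29) rose as well. rx2, a retinal homeobox gene, did not pass: it read 8.6, 10.2 and 11.9 in mutant CNS cells and 4.8, 5.1 and 8.4 in the mutant rest (log2 fold change 0.25, SE 0.23, adjusted p = 0.561).

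Genes of the midbrain and of its boundary with the hindbrain divided. Of 20 tested, 7 were higher (35%) and 3 lower (15%), where 6.49% and 9.03% of all features were, with a median of 0.09. Without replicate 2 of the mutant CNS cells the count of higher members fell to 4. The engrailed genes en2a and en2b, which specify the midbrain-hindbrain territory, were among the 15 largest rises of genes with a name. en2b measured 448.7, 637.9 and 438.2 in mutant CNS cells, against 83.1, 138.4 and 81.1 in the mutant rest, and en2a measured 190.5, 225.9 and 138.3 in mutant CNS cells, against 23.4, 54.3 and 32.6 in the mutant rest. irx1b, an Iroquois factor of midbrain and anterior hindbrain, rose by 1.43 (SE 0.24, adjusted p = 1.85e-04), and her5, a boundary repressor of neurogenesis, by 0.67 (SE 0.17, adjusted p = 0.00616). The lower members included 2 feedback inhibitors of fibroblast growth factor signalling that are transcribed wherever the signal acts, the tailbud included. spry4 fell by 0.84 on the log2 scale (SE 0.19, adjusted p = 0.0026) and il17rd was lower as well (log2 fold change -1.09, SE 0.19, adjusted p = 2.53e-04). The ligand gene fgf8a read 40.8, 47.9 and 50.5 in mutant CNS cells and 64.8, 56.1 and 61.3 in the mutant rest, with groups that did not overlap but an adjusted p of 0.456.

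In the hindbrain list, 5 of 20 members were higher (25%) and 4 lower (20%), where 6.49% and 9.03% of all features were. Its median was 0.19. The 4 lower members were all hox genes, of paralog groups 2 and 3. Higher members included irx3a (log2 fold change 0.92, SE 0.17, adjusted p = 4.43e-04), an Iroquois factor, and nr2f2 (0.88, SE 0.22, adjusted p = 0.00787), a nuclear receptor. Genes that pattern the neural tube from dorsal to ventral had 12 of 22 members higher (54.5%) and 1 lower (4.55%), with a median of 0.67. olig2, the bHLH factor of motor neuron progenitors, had 169.6, 192.9 and 143.8 in mutant CNS cells, against 38.5, 57.1 and 37.7 in the mutant rest. nkx2.2b, a factor of the ventral-most progenitors under Hedgehog control, had 86.3, 83.6 and 87.7 in mutant CNS cells, against 16.5, 20.8 and 14.8 in the mutant rest. Both sets of 3 arrays stood well apart in each gene. The intermediate progenitor factor dbx1a (1.32) and the ventral factor nkx2.9 (1.32) rose, and so did olig3 (1.42), a bHLH factor of dorsal progenitors. The single lower member, sp5l (-2.21, SE 0.33, adjusted p = 4.05e-05), is a Wnt target that is strongly transcribed in the tailbud.

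Of 10 tested SoxB and SoxC genes, 9 were higher (90%, where 6.49% of all features were), none lower, and the median was 1.00. The list mixes roles: SoxB1 factors keep neural cells in a progenitor state, SoxB2 factors act against them, and SoxC factors are known from neuronal differentiation. sox2, the SoxB1 gene used most widely as a progenitor mark, had 661.3, 748.4 and 706.6 in mutant CNS cells, against 184.2, 270.7 and 170.6 in the mutant rest (log2 fold change 1.71, SE 0.18, adjusted p = 5.83e-07). Of its 3 probe sets 2 passed, and the lowest gave a log2 fold change of 0.10. sox21b, a SoxB2 gene, had 529.1, 558.9 and 529.5 in mutant CNS cells, against 97, 186.4 and 89.1 in the mutant rest. The groups were far apart in both, and replicate 2 of the mutant rest was the highest of its group. The SoxC gene sox11b rose by 1.18 (SE 0.14, adjusted p = 2.01e-06), while sox4a was the one member not called (0.23, adjusted p = 0.358). All 6 tested Zic genes, zinc finger factors of the dorsal neural tube, were higher, between 1.02 for zic2b and 1.90 for zic6.

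Radial glial and stem cell genes had 6 of 11 members higher (54.5%) and 2 lower (18.2%), where 6.49% and 9.03% of all features were. Their median was 0.81. gfap, the intermediate filament of radial glia, had 169, 174.5 and 179.3 in mutant CNS cells, against 57, 50 and 45.5 in the mutant rest (log2 fold change 1.51, SE 0.16, adjusted p = 8.71e-07). fabp7a, the brain lipid-binding protein, rose by 1.05, and the glutamate transporters slc1a2b and slc1a3a by 1.05 and 0.87. The lower members were glula and gja1b. glula, glutamine synthetase, measured 169.6, 217.6 and 211.7 in mutant CNS cells, against 658.4, 710.1 and 763.4 in the mutant rest (log2 fold change -1.76, SE 0.13, adjusted p = 5.38e-09). gja1b, a gap junction connexin, measured 21, 27.1 and 24.8 in mutant CNS cells and 78.9, 35.8 and 82.9 in the mutant rest (-0.97, SE 0.26, adjusted p = 0.0137). Its groups did not overlap, but replicate 2 of the mutant rest came close to the CNS cells. The call was lost without replicate 1 of either fraction or replicate 3 of the rest, and with an added constant of 64. In these fits its adjusted p was at most 0.0893.

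Members of the Notch pathway moved in both directions. Of 30 ligands, receptors, modulators, targets and other her genes tested, 13 were higher (43.3%) and 7 lower (23.3%), with a median of 0.21. The shares over all features were 6.49% and 9.03%. Among ligands, dla (1.40), dlb (1.24) and jag2b (1.32) rose, and dlc, the Delta ligand of the somite clock, fell. dla had 1267.7, 1236.4 and 1142.6 in mutant CNS cells, against 396.9, 531 and 433.1 in the mutant rest. dlc had 48.5, 44.5 and 46.9 in mutant CNS cells, against 289, 282.4 and 428.2 in the mutant rest (log2 fold change -2.45, SE 0.21, adjusted p = 4.38e-08). Among receptors, notch2 fell by 1.34 on the log2 scale (SE 0.19, adjusted p = 2.53e-05), and notch1a read 55.2, 68.5 and 42.8 in mutant CNS cells and 43.4, 47.7 and 54.1 in the mutant rest, with an adjusted p of 0.743. The modulator lfng, a glycosyltransferase that tunes Notch, rose by 0.75 (SE 0.13, adjusted p = 2.61e-04).

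Among targets of Notch, her4.5 had 558.5, 457.8 and 863.4 in mutant CNS cells, against 78.1, 141.2 and 204.6 in the mutant rest, and her4.2 had 340.1, 307.2 and 508.6 in mutant CNS cells, against 75.5, 100.7 and 83.9 in the mutant rest. The her4 genes are near-identical tandem copies, so their probe sets may share signal and are not independent. The feedback inhibitor nrarpb (1.16) rose too. Other her genes on the list, her2 (1.71), her3 (1.90), her9 (1.07) and her15.2 (1.16), were also higher. Not all her genes are activated by Notch, and whether Notch drives these rises was not tested. For her3, a repressor of neurogenesis, the second of 2 probe sets gave a log2 fold change of 0.47 and was not called. The somite clock genes her1 and her7 fell. her1 had 10.4, 2 and 5.6 in mutant CNS cells, against 100.7, 78.5 and 160.5 in the mutant rest, and her7 fell by 1.97 (SE 0.25, adjusted p = 7.65e-06). hey1, a target in vessels and mesoderm, fell by 1.64 (SE 0.28, adjusted p = 2.55e-04).

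Factors that drive or mark neuron formation had 14 of 24 members higher (58.3%) and 4 lower (16.7%), where 6.49% and 9.03% of all features were. Their median was 0.71. POU factors of neural progenitors and young neurons rose together. pou3f3a had 398.6, 465.3 and 444.4 in mutant CNS cells, against 102.8, 117 and 108.8 in the mutant rest (log2 fold change 1.85, SE 0.14, adjusted p = 4.09e-09), and pou3f2b (1.74), pou3f3b (1.59) and pou3f1 (1.52) followed. ascl1a, a proneural bHLH factor, measured 112.8, 168.6 and 129.6 in mutant CNS cells, against 48.1, 57.7 and 30.9 in the mutant rest. insm1b (1.42) and myt1a (1.64), zinc finger factors of cells leaving the cycle, also rose, and so did ebf2 (1.04), a factor of young neurons. bhlhe22, a bHLH factor of retina and hindbrain neurons, rose by 1.29 (SE 0.15, adjusted p = 2.29e-06). neurod1 did not pass (log2 fold change 0.63, adjusted p = 0.144). isl2a, a LIM homeodomain factor of motor and sensory neurons, fell by 0.86 (SE 0.18, adjusted p = 0.00176), while its relative isl1a read 216.2, 224.2 and 144.3 in mutant CNS cells and 104, 237.1 and 99.3 in the mutant rest, with groups that overlapped.

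Genes of the neuronal cytoskeleton and of transmission had 17 of 28 members higher (60.7%) and 1 lower (3.57%), where 6.49% and 9.03% of all features were. Their median was 0.87. stmn4, a neuronal tubulin-binding protein, had 104.2, 94.6 and 126.4 in mutant CNS cells, against 20.5, 27.7 and 22.9 in the mutant rest (log2 fold change 1.64, SE 0.20, adjusted p = 4.73e-06). gng3, a G protein subunit of neurons, had 82.7, 103.3 and 101.7 in mutant CNS cells, against 28.5, 37.7 and 23.5 in the mutant rest. The synaptic vesicle gene snap25a (1.27), the complexin cplx2a (1.25), the growth cone proteins dpysl3 (1.24) and dpysl5a (1.33) and the splicing factors celf3a (1.37) and nova2 (1.28) were all higher. Of the 3 probe sets of nova2, 2 passed, and the lowest gave a log2 fold change of 0.46. Some later neuronal genes missed the threshold, among them elavl4 (0.42, adjusted p = 0.113), gap43 (0.34, 0.282), gad1b (0.36, 0.187) and syt1a (0.55, 0.163). The lower member was tagln3b, a calponin-related actin-binding protein, with 59.1, 52.7 and 58.3 in mutant CNS cells, against 141.2, 135.6 and 147.7 in the mutant rest.

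Axon guidance and adhesion genes were mixed, with 8 of 33 higher (24.2%) and 6 lower (18.2%), where 6.49% and 9.03% of all features were. Their median was 0.27. ptprna, a receptor-type phosphatase of neuroendocrine cells, had 530, 530.6 and 509.9 in mutant CNS cells, against 126, 196.1 and 110.6 in the mutant rest (log2 fold change 1.79, SE 0.22, adjusted p = 4.01e-06). fgfr3 (1.31), pcdh19 (1.24) and epha4b (0.99) rose. sema3d (-1.28), a secreted repellent, and plxnd1 (-1.46), a semaphorin receptor of vessels, fell. N-cadherin, cdh2, had 1604.1, 1688.5 and 1500.7 in mutant CNS cells and 1695, 1457.8 and 1721 in the mutant rest, with overlapping groups (log2 fold change -0.02, adjusted p = 0.95).

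**Figure D2:**
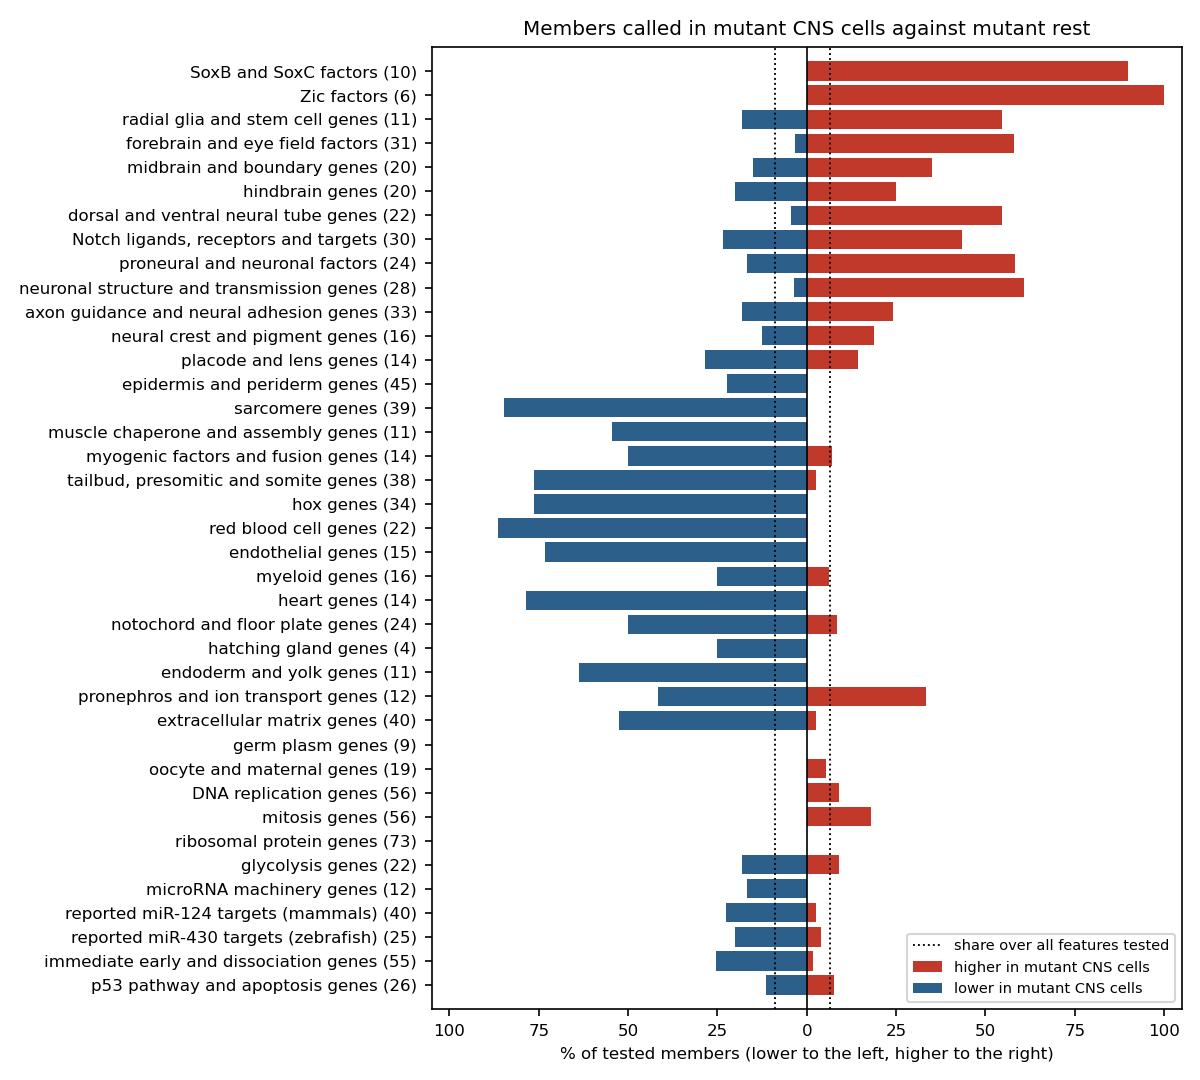
Share of the tested members of each of 39 gene lists called higher (bars to the right) or lower (bars to the left) in mutant CNS cells against mutant rest, with the number tested in brackets. The dotted lines mark the shares over all 9548 features, 6.49% higher and 9.03% lower. Neural lists reach past the right line, and the muscle, tailbud, hox, blood and heart lists reach past the left one. Among neural lists, the Notch, hindbrain, radial glia, axon guidance, proneural and midbrain lists pass both lines. So do the pronephros, neural crest, placode, notochord, myogenic, glycolysis and p53 lists.

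The falls were led by blood and muscle. hbae3, an embryonic alpha globin, had intensities of 1.9, 1.9 and 2.2 in mutant CNS cells, against 1129.7, 493.4 and 1433.8 in the mutant rest (log2 fold change -5.72, SE 0.67, adjusted p = 2.30e-06). A second probe set of hbae3 also passed, with a smaller log2 fold change of -2.32. hbbe3, an embryonic beta globin, had 14.7, 2.3 and 3.9 in mutant CNS cells, against 1329.3, 585.6 and 1090.9 in the mutant rest. In both genes replicate 2 of the mutant rest was the lowest of its group. Of 22 red blood cell genes, 19 were lower (86.4%, where 9.03% of all features were) and none higher, with a median of -2.09. The erythroid master factor gata1a measured 7.7, 7.1 and 4 in mutant CNS cells, against 251.5, 177 and 206.8 in the mutant rest. hdr, the haematopoietic death receptor, had 5.4, 4.6 and 0.9 in mutant CNS cells, against 290.9, 191.7 and 266.2 in the mutant rest. The log2 fold change of hdr was -3.75 by this probe set and -1.36 by a second, which also passed. Falls were also called for drl (log2 fold change -4.61), a zinc finger factor of blood and heart precursors, lmo2 (-3.32), an adaptor of the blood and vessel program, and alas2 (-2.80), the first enzyme of heme synthesis in red cells.

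Of 39 sarcomere genes, 33 were lower (84.6%, where 9.03% of all features were) and none higher, with a median of -1.46. smyhc1, slow myosin heavy chain, had 23.6, 4.4 and 6.7 in mutant CNS cells, against 872.5, 739.9 and 933.3 in the mutant rest, and its highest CNS value was in replicate 1. ttn.2, titin, had 20.9, 16.6 and 15 in mutant CNS cells, against 718.7, 735.9 and 810.2 in the mutant rest, and actc1a, an actin of striated muscle, had 200.5, 81.4 and 107 in mutant CNS cells, against 2678, 2308.8 and 3095.6 in the mutant rest. The skeletal actin actc1b (-3.67) and mybphb (-2.54), a myosin-binding protein, fell too. smyhc1, ttn.2 and actc1a had log2 fold changes of -5.03, -4.53 and -4.29. Of 11 genes for myosin chaperones and muscle assembly, 6 were lower (54.5%). hsp90aa1.1, the muscle form of Hsp90 that folds myosin, had 95.9, 31.5 and 51.6 in mutant CNS cells, against 2920.2, 2571.8 and 3401.5 in the mutant rest (-5.38, SE 0.30, adjusted p = 1.01e-10), and its partner unc45b had 65.7, 52.5 and 52.8 in mutant CNS cells, against 737, 744.8 and 759.8 in the mutant rest. klhl41b, a Kelch protein of the sarcomere, fell by 3.56 on the log2 scale and the acetylcholine receptor subunit chrna1 had -1.39. Among 14 myogenic and fusion genes, 7 were lower (50%) and 1 higher (7.14%), where 9.03% and 6.49% of all features were. The regulators myog (-3.73), myf5 (-2.91) and myod1 (-1.74) fell, as did the fusion protein jam2a (-1.98). mef2d had 2 probe sets that differed, at -1.81 and -0.02.

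Tailbud, presomitic and somite genes had 29 of 38 members lower (76.3%) and 1 higher (2.63%), where 9.03% and 6.49% of all features were. Their median was -1.99. tbx16, the T-box factor that lets mesoderm cells leave the midline, had 74, 13.5 and 13.1 in mutant CNS cells, against 808.1, 724.3 and 1333.6 in the mutant rest. msgn1, a bHLH factor of the presomitic mesoderm, had 273.5, 54.7 and 86.6 in mutant CNS cells, against 2515.9, 2198.8 and 3107 in the mutant rest. For msgn1 and tbx16 a second probe set also fell, with log2 fold changes of -1.15 and -3.06. In both genes, replicate 1 was the highest of the CNS arrays, several times above the other two, yet below every rest array. aldh1a2, which makes retinoic acid in the somites, had 15.4, 8.9 and 8.6 in mutant CNS cells, against 820.5, 585.8 and 752.1 in the mutant rest (log2 fold change -4.77, SE 0.21, adjusted p = 1.09e-11). Falls were also called for tbxta (-3.13), the brachyury factor of notochord and tailbud, tcf15 (-3.00), a somite bHLH factor, pcdh8 (-3.06), a paraxial adhesion protein, and foxc1a (-2.46), a somite forkhead factor. cdx4, the posterior homeodomain factor that is also present in spinal cord, fell too (-1.03, SE 0.22, adjusted p = 0.00206). mycn was the member that rose (0.81, SE 0.17, adjusted p = 0.00136). It is a proliferation factor that neural progenitors express as well.

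Hox genes, which give position along the body axis, were lower in mutant CNS cells, with a larger median difference in the posterior paralog groups. Of 34 tested, 26 were lower (76.5%, where 9.03% of all features were) and none higher, with a median of -1.23. In paralog groups 1 to 4, which act in the hindbrain, 4 of 10 were lower and the median was -0.35. In groups 5 to 8 it was 8 of 10 with a median of -1.24, and in groups 9 to 13, of the trunk and tail, 14 of 14 with a median of -1.76 and a range from -2.77 to -0.85. hoxc11a had 36.3, 23.8 and 31.2 in mutant CNS cells, against 319.2, 217.2 and 386.1 in the mutant rest. hoxb10a had 72.2, 39.1 and 43.9 in mutant CNS cells, against 400.4, 346.1 and 501 in the mutant rest, and hoxd11a had 68.7, 40.4 and 26.2 in mutant CNS cells, against 358.3, 312.7 and 326.6 in the mutant rest. hoxa9a (-1.73) and hoxa9b (-1.91) fell by similar amounts. Second probe sets of hoxc11a, hoxb10a and hoxa9a also passed, with smaller log2 fold changes of -1.47, -1.33 and -0.91. At the anterior end hoxb3a had 382, 318.8 and 302.6 in mutant CNS cells, against 806.1, 651 and 732 in the mutant rest (-1.09, SE 0.15, adjusted p = 2.54e-05), and hoxd4a, of group 4, did not pass, with 270.8, 323.6 and 274.1 in mutant CNS cells and 272.9, 272.3 and 223.8 in the mutant rest (0.17, adjusted p = 0.66). The 3 bands were drawn with the values known, and no test was made between them.

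**Figure D3:**
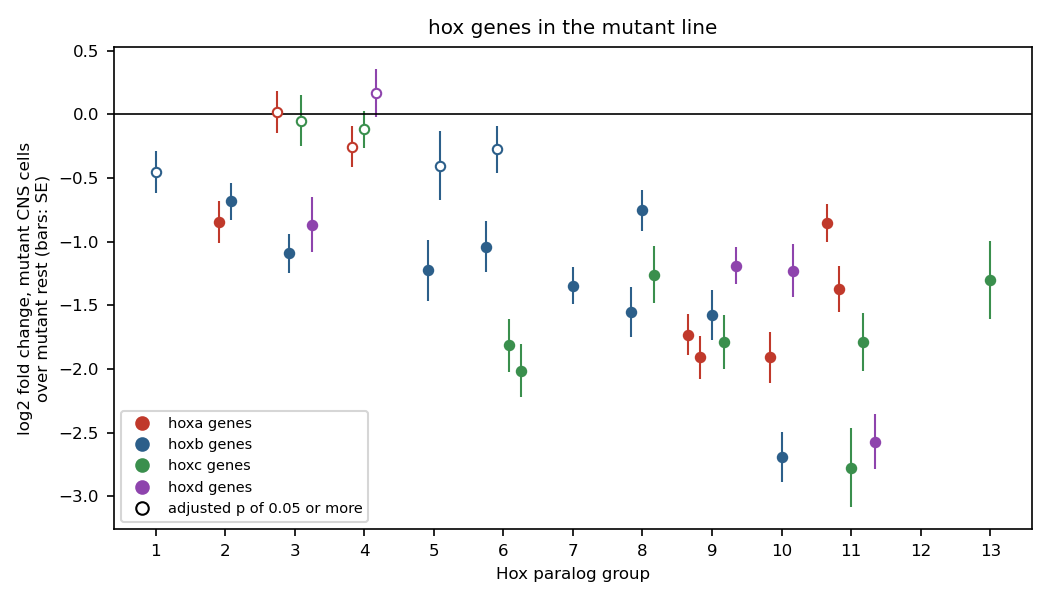
Log2 fold change of mutant CNS cells over mutant rest for 34 hox genes (points, bars give the SE) by paralog group, coloured by cluster, with open points where the adjusted p was 0.05 or more. All 14 genes of groups 9 to 13 lie between -2.77 and -0.85, while the 10 genes of groups 1 to 4 lie between -1.09 and 0.17.

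Vessel and heart genes were lower as well. Of 15 endothelial genes, 11 were lower (73.3%, where 9.03% of all features were) and none higher. fli1, an ETS factor of vessels, had 44.9, 41.6 and 30.7 in mutant CNS cells, against 206.3, 180.7 and 186.9 in the mutant rest, and tal1, shared by blood and vessels, had 21.8, 19.1 and 13.4 in mutant CNS cells, against 196.7, 151 and 199 in the mutant rest. aplnra, the apelin receptor, fell by 1.56 on the log2 scale. Of 14 heart genes, 11 were lower (78.6%) and none higher. hand2, a bHLH factor of heart, fin and pharyngeal precursors, had 94.9, 78.2 and 61.7 in mutant CNS cells, against 1074.5, 802.7 and 878.5 in the mutant rest (-3.31, SE 0.19, adjusted p = 1.60e-10), and gata5, of heart and endoderm, fell by 3.12. gata6 (-1.15) and has2 (-2.38), the hyaluronan synthase of the cardiac cushions, were lower. nkx2.7, a cardiac and pharyngeal homeodomain factor, read 67.5, 38.5 and 41.7 in mutant CNS cells and 68, 77.1 and 69.1 in the mutant rest and did not pass (adjusted p = 0.134).

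In the endoderm and yolk list 7 of 11 genes were lower (63.6%), where 9.03% of all features were lower and 6.49% higher. Among them were the apolipoprotein apoc1 (-3.26), hhex (-1.57), a factor of liver and vessel precursors, and foxa3 (-1.27), an endodermal forkhead factor. Notochord and floor plate genes had 12 of 24 lower (50%) and 2 higher (8.33%). The lower ones included gdf3 (-1.22), a Nodal-related partner ligand, the collagen col9a2 (-1.58) and the caveolin cav1 (-1.51). Pronephros and ion transport genes had 5 of 12 lower (41.7%) and 4 higher (33.3%). The lower count was 3 without replicate 1 of the CNS cells or replicate 2 of the rest. The sodium pump subunit atp1a1a.4 (-1.71), the kidney cadherin cdh17 (-1.66) and hnf1bb (-1.38), a nephron and hindbrain factor, were lower, whereas the higher members, jag2b and irx1b among them, are also on the neural lists. Extracellular matrix genes had 21 of 40 lower (52.5%) and 1 higher (2.5%). aqp8a.1, an aquaporin, and angptl7, a secreted angiopoietin-like protein, stand outside these lists but among the 15 largest falls of genes with a name (-3.93 and -3.83). A further 9 probe sets without a single symbol fell at least as far as the smallest of those 15. fn1b, a fibronectin of the somite boundaries, had 25.8, 7.4 and 8.3 in mutant CNS cells, against 510.9, 415 and 466.6 in the mutant rest. efemp2b, a fibulin, had 40.3, 27.9 and 37.9 in mutant CNS cells, against 712.5, 643.6 and 801.6 in the mutant rest, and col5a2a, a fibrillar collagen, fell by 2.73 on the log2 scale. A second probe set of col5a2a also passed, with a log2 fold change of -0.60.

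Of 45 epidermis and periderm genes tested, 10 were lower and none higher in mutant CNS cells, with a median of -0.38. That is 22.2% lower, where 9.03% of all features were. In the wild-type line 42 of the same 45 were lower in CNS cells, with a median of -1.66, where 18.3% of all features were lower and 14.5% higher. The difference between the 2 lines' sort differences, tested as an interaction, passed for 16 members, all higher in the mutant line, where 2.27% of all features passed in that direction and 0.304% in the other. The 4 falls with the smallest adjusted p were klf17 (-2.52), a Kruppel-like factor that the hatching gland also uses, spint2 (-1.39), a protease inhibitor of epithelia, the claudin cldn3c (-1.50) and the keratin krt94 (-0.97). The interaction count was 8 without replicate 1 of the mutant CNS cells, 9 without replicate 1 and 10 without replicate 3 of the mutant rest, and 10 without replicate 1 of the wild-type CNS cells.

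cldni, a claudin of the embryonic skin, had 1677.3, 1040.2 and 1133.2 in mutant CNS cells and 1246.1, 1814.1 and 1279.8 in the mutant rest, with overlapping groups. In the wild-type line it had 134.7, 347.9 and 149.1 in CNS cells, against 1414.8, 1536 and 1710.9 in the rest. The interaction was 2.73 on the log2 scale (SE 0.50, adjusted p = 0.00375). tp63, the master factor of basal epidermis, had 381.1, 221.8 and 225.6 in mutant CNS cells and 190.2, 333.5 and 199.2 in the mutant rest, whereas the wild-type line had 30.6, 66.7 and 47.6 in CNS cells, against 204.8, 430.5 and 328.5 in the rest (interaction 2.56, SE 0.42, adjusted p = 0.00178). cdh1, E-cadherin, gave an interaction of 2.06 (SE 0.32, adjusted p = 0.00142). The keratins krt8 and krt18a.1 had log2 fold changes of -0.92 and -1.40 in the mutant line and of -2.72 and -3.39 in the wild-type line, all past the threshold, with interactions of 1.80 (adjusted p = 0.00151) and 1.99 (adjusted p = 0.00444). krt4, krt5 and epcam had interactions of 2.13, 1.93 and 1.89 that missed the threshold (adjusted p = 0.0716, 0.117 and 0.0522).

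Over arrays, the sum of the 5 epidermal markers was 4127.5, 2386.8 and 2578.0 in mutant CNS cells, against 3378.0, 4852.9 and 3619.3 in the mutant rest. In the wild-type line it was 546.5, 941.0 and 491.9 in CNS cells, against 3659.3, 4632.8 and 5309.8 in the rest. Every mutant CNS array lay above every wild-type CNS array, and replicate 1 was the highest of them. The median sort difference of the 45 genes was -0.08 in pair 1, -0.83 in pair 2 and -0.46 in pair 3 of the mutant line.

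Genes of white blood cells also differed between the lines, with lower levels in the mutant rest than in the wild-type rest for several of them. Of 16 myeloid genes, 4 were lower and 1 higher in mutant CNS cells, against 12 lower and 1 higher in wild-type CNS cells, and 7 had a higher interaction. Over all features 9.03% were lower and 6.49% higher in mutant CNS cells, against 18.3% lower and 14.5% higher in wild-type CNS cells. A higher interaction passed for 2.27% of all features. lcp1, the leukocyte plastin, had 0.6, 1.3 and 1.2 in mutant CNS cells and 1.1, 0.5 and 1.9 in the mutant rest, near the bottom of the scale in both. The wild-type line had 1.3, 0.8 and 1.3 in CNS cells, against 19.6, 54.2 and 81.4 in the rest. spi1b, the master factor of myeloid cells, had 11.3, 17.1 and 13.5 in mutant CNS cells and 33.5, 31.9 and 22.6 in the mutant rest, while the wild-type line had 1.9, 15.3 and 7.4 in CNS cells, against 142.4, 132.8 and 269.4 in the rest (interaction 2.41, SE 0.45, adjusted p = 0.0043). cebpa kept a large difference in both, with 6.8, 8.5 and 9.1 in mutant CNS cells, against 275.6, 269.1 and 210.5 in the mutant rest. apoeb (-1.65), an apolipoprotein that macrophages and yolk also express, and the matrix protease mmp9 (-0.75) were lower. The higher member was coro1b (1.71, SE 0.15, adjusted p = 3.45e-08), an actin-binding coronin found in many cell types.

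**Figure D4:**
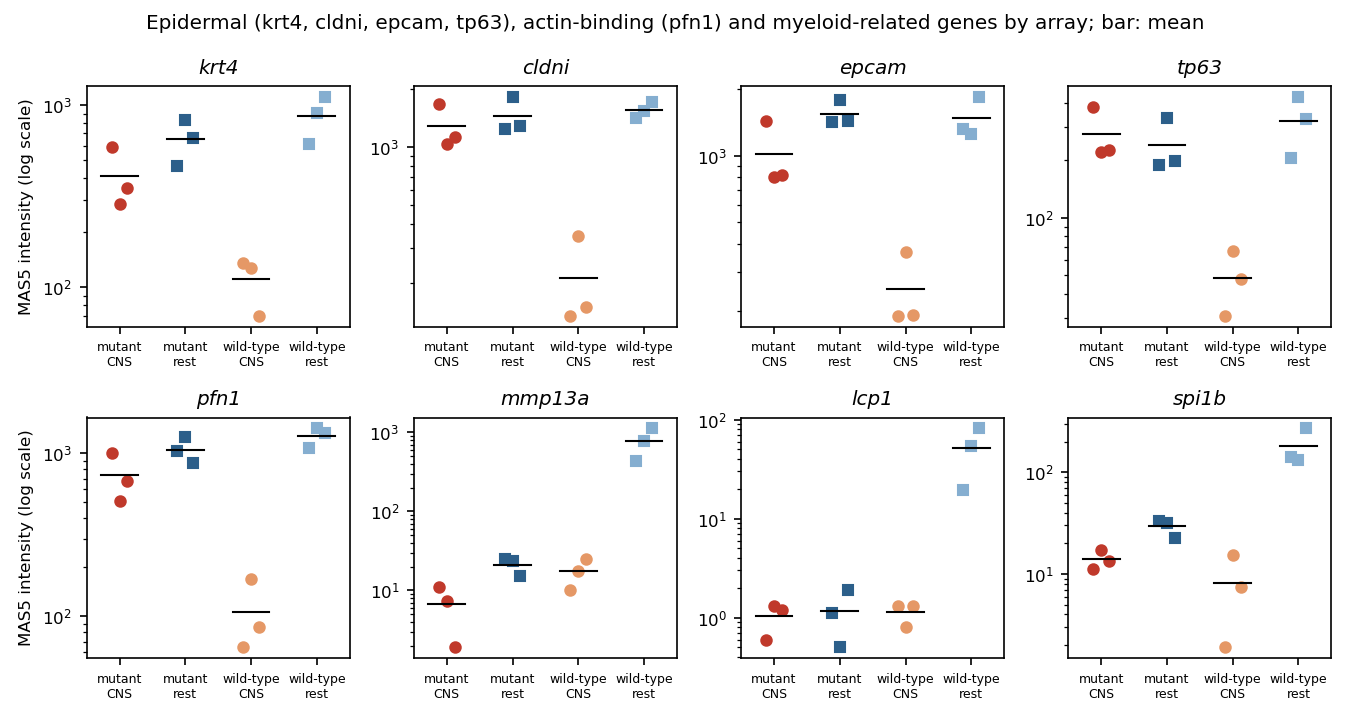
Intensity on each array (log scale, 3 arrays a group, bars at the mean) of epidermal genes, the actin-binding gene pfn1, the protease gene mmp13a and the myeloid genes lcp1 and spi1b in mutant CNS cells, mutant rest, wild-type CNS cells and wild-type rest. The epidermal genes and pfn1 set the wild-type CNS cells apart as low, whereas mmp13a, lcp1 and spi1b set the wild-type rest apart as high.

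Over all features, the sort differences of the 2 lines had the same direction in most calls. Of the 620 features higher in mutant CNS cells, 463 (74.7%) were also called higher in wild-type CNS cells, and of the 862 lower ones 777 (90.1%) were also called lower there. The wild-type line had more calls, 3129 (32.8%), and a wider spread of fold changes, with an SD of 0.75 against 0.58 in the mutant line. The interaction passed for 246 features (2.58%), 217 higher and 29 lower in the mutant line. Of the 217, 208 (95.9%) were called lower in wild-type CNS cells, where 18.3% of all features were. Their median fold change was -0.32 in the mutant line against -1.68 in the wild-type line. The wild-type difference is subtracted in the interaction, so choosing high interactions from these arrays favours falls in the wild-type line. That share and those medians are therefore no separate support. For 125 of the 217 the larger part of the interaction lay in the CNS cells of the 2 lines, and for 92 it lay in the rest fractions. The CNS part was the larger in 11 of 16 epidermal genes, and the rest part was the larger in 5 of 7 myeloid and 5 of 7 heart genes. With an added constant of 1 the heart genes with a higher interaction were 2 instead of 7. With the 60th percentile filter the myeloid genes with a higher interaction were 3 instead of 7. The split into parts was not repeated under these settings. With the replicate number as a block the interaction passed for 380 features, 316 higher and 64 lower. The count of 246 was 141 without replicate 1 of the wild-type CNS cells, 152 without replicate 1 of the mutant CNS cells, and 159 and 158 without replicates 1 and 3 of the mutant rest.

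All of the 8 largest interactions on the higher side, among named genes, were of genes that fell in wild-type CNS cells and did not pass in the mutant line. Choice by the interaction favours such wild-type falls. pfn1, profilin, had 1007, 512.8 and 677.3 in mutant CNS cells and 1028.2, 1254.6 and 873.3 in the mutant rest, against 64.5, 169.4 and 85.7 in wild-type CNS cells and 1078.4, 1419.2 and 1321.9 in the wild-type rest. tagln2, a calponin-related actin-binding protein, had 607, 324.7 and 400.2 in mutant CNS cells and 586.6, 849.2 and 528.8 in the mutant rest, against 33.3, 98.5 and 55.8 in wild-type CNS cells and 560.4, 514.8 and 638.5 in the wild-type rest. In both genes the wild-type CNS cells were the one low group. The interactions were 2.93 (SE 0.41, adjusted p = 8.30e-04) and 2.42 (SE 0.39, adjusted p = 0.00163), and those of gpa33a and postnb were 2.56 and 2.51. mmp13a, a collagenase, differed instead in the rest: it had 11, 7.3 and 1.9 in mutant CNS cells and 24.6, 23.4 and 15.2 in the mutant rest, while the wild-type line had 10.2, 17.6 and 24.7 in CNS cells, against 431.2, 770.5 and 1118.8 in the rest (interaction 3.77, SE 0.42, adjusted p = 8.70e-05). On the lower side, aldh1a2 had 53.5, 66.7 and 56.9 in wild-type CNS cells, against 493.7, 280.6 and 242.5 in the wild-type rest, so that its sort difference was smaller there than the -4.77 of the mutant line (interaction -2.58, SE 0.29, adjusted p = 9.53e-05). The adaptor gene gulp1a (-1.75), the iron-sulphur scaffold gene iscub (-1.47), hoxa9b (-1.29), the ventral repressor vox (-1.90) and mllt3 (-1.49) completed the 8 on that side with those below. gja1b was lower in mutant CNS cells than in the mutant rest and higher in wild-type CNS cells, with 524.4, 685.3 and 660.2, than in the wild-type rest, with 234.4, 219.9 and 274.4 (interaction -2.27, adjusted p = 0.00179). rx2 had 83.9, 76.1 and 132 in wild-type CNS cells, against 2, 20.9 and 17.8 in the wild-type rest, and gave -1.72 (adjusted p = 0.0043), a call that was lost with an added constant of 1, where the adjusted p was 0.174.

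**Figure D5:**
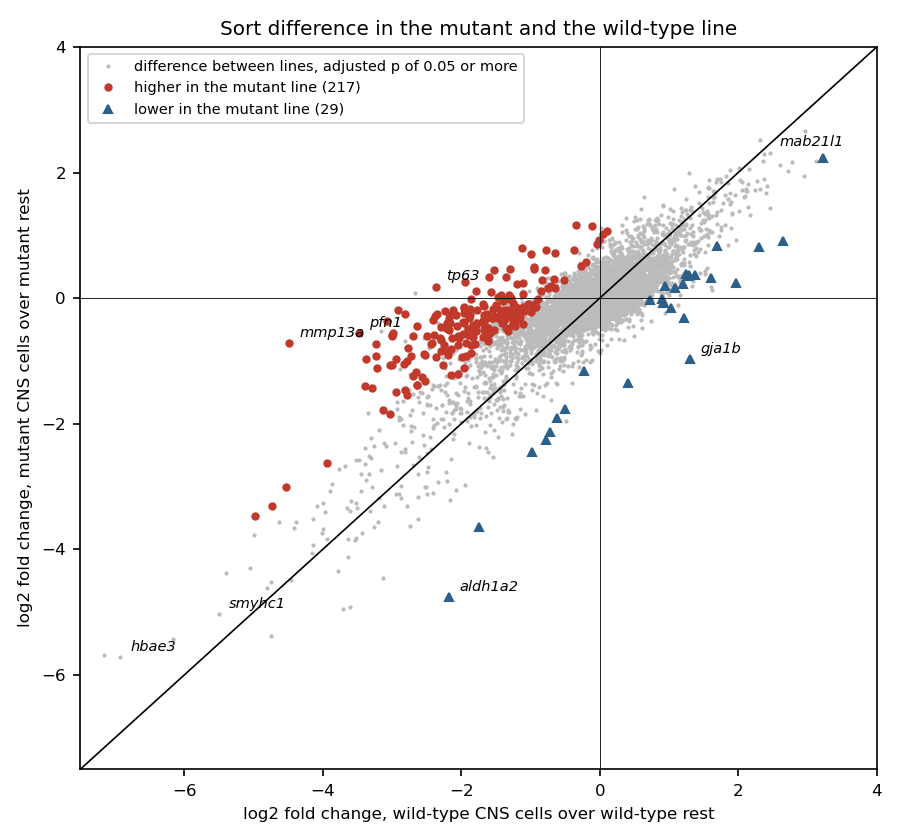
Log2 fold change of CNS cells over rest in the mutant line (vertical) and in the wild-type line (horizontal) for 9548 features, with circles for the 217 features whose difference was higher in the mutant line, triangles for the 29 that were lower, and the diagonal for equal values. Circles lie above the diagonal and triangles below it by the way they were chosen. Most circles also lie left of 0, which that choice favours, with a median of -0.32 in the mutant line and -1.68 in the wild-type line.

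Of 16 crest and pigment genes, 3 were higher (18.8%) and 2 lower (12.5%), where 6.49% and 9.03% of all features were. sox10, a factor of crest and of the ear, had 630.8, 674 and 705.9 in mutant CNS cells, against 267.1, 380.5 and 242.1 in the mutant rest (1.16, SE 0.26, adjusted p = 0.00339). inka1a, a crest gene, rose by 1.17 (SE 0.24, adjusted p = 0.00118). foxd3, an early crest factor, had 157.4, 99 and 110.8 in mutant CNS cells and 176.2, 222.6 and 178.6 in the mutant rest and missed the threshold (-0.61, adjusted p = 0.0509). snai1a, a Snail repressor that is also a mesoderm gene, fell by 2.81 on the log2 scale, and snai2, a crest Snail factor, had a log2 fold change of -0.85 (adjusted p = 0.00154). crestin, a pan-crest transcript, did not pass (0.07, adjusted p = 0.931). Of 14 placode genes, 2 were higher (14.3%) and 4 lower (28.6%). The lowest were six4a (-2.22) and eya1 (-1.41), factors that muscle precursors also express, and six2a was at -0.89.

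Cell cycle genes mostly had small positive fold changes. Of 56 DNA replication genes, 54 were positive, with a median of 0.27, and 5 passed, all higher. Of 56 mitosis genes, 52 were positive, with a median of 0.28, and 10 passed, all higher. These are 8.93% and 17.9% of the members, where 6.49% of all features were higher. Leaving out each mutant array in turn gave 1 to 4 replication and 2 to 7 mitosis genes, and the mutant arrays alone with the replicate block gave 25 and 26. The mitotic kinesin kif4 had 417.5, 478.4 and 512.3 in mutant CNS cells, against 254.8, 321.6 and 310.3 in the mutant rest (0.64, SE 0.13, adjusted p = 0.00153), and pola1, the catalytic subunit of DNA polymerase alpha, rose by 0.52 (SE 0.13, adjusted p = 0.00728). In wild-type CNS cells 51 of the 56 replication and 45 of the 56 mitosis genes were higher, where 14.5% of all features were. The wild-type medians were 0.66 and 0.71. No single member of either list passed the interaction, but its medians over the lists were -0.42 and -0.43. None of 73 ribosomal protein genes passed by limma's test, and 71 were below 0, with a median of -0.20. Of 22 glycolysis genes 2 were higher (9.09%) and 4 lower (18.2%), where 6.49% and 9.03% of all features were. The triosephosphate isomerase gene tpi1a fell by 0.82. The muscle aldolase aldoab fell (-2.18, SE 0.20, adjusted p = 1.08e-07), and the brain aldolase aldocb (1.03) and the pyruvate kinase pkma (0.57) rose. A second probe set of aldocb gave a log2 fold change of 0.36 and was not called. The lower count was 2 without replicate 2 of the CNS cells or replicate 3 of the rest.

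Of 12 genes of the microRNA pathway, 2 were lower in mutant CNS cells (16.7%) and none higher, where 9.03% and 6.49% of all features were. fxr2, an RNA-binding relative of the fragile X protein, had 133.4, 95.7 and 114.6 in mutant CNS cells, against 327.6, 227.9 and 293.1 in the mutant rest (-1.19, SE 0.16, adjusted p = 1.32e-05). The call of snd1, a nuclease subunit of the silencing complex (-0.34, adjusted p = 0.0424), was lost under 9 of 18 alternatives. Of the 3 probe sets of snd1, 1 passed when all probe sets were tested. drosha, which makes the precursors that Dicer cuts, had 89.3, 91.4 and 94.4 in mutant CNS cells and 90, 83.7 and 88.5 in the mutant rest, and its partner dgcr8 had 488, 602.6 and 551.1 in mutant CNS cells and 428.6, 497.8 and 467.7 in the mutant rest, and neither passed (0.06 and 0.23, adjusted p = 0.855 and 0.475).

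Reported targets of miR-124, known from mammals, are given because the reporter of both lines is named for this microRNA. Of 40 tested, 9 were lower and 1 higher in mutant CNS cells, with a median of -0.11. In the wild-type line the count was 15 lower and 4 higher, with a median of -0.19, and 4 members had a higher interaction. The shares over all features were 9.03% lower and 6.49% higher in the mutant line and 18.3% and 14.5% in the wild-type line. For a higher interaction the share was 2.27%. plp2b, a proteolipid, had 177.4, 179.4 and 199.4 in mutant CNS cells, against 579.4, 786.5 and 1050.2 in the mutant rest. The tetraspanin cd9b (-1.49) and the stress gene ndrg1a (-0.93) fell. iqgap1, a scaffold protein, had 206.6, 146.5 and 146.1 in mutant CNS cells, against 303.6, 376.2 and 289.9 in the mutant rest, and in the wild-type line 21.5, 38.9 and 29.3 in CNS cells, against 200, 241.8 and 302.9 in the rest (interaction 1.62, SE 0.29, adjusted p = 0.0031). The higher member was vim, the filament protein vimentin (0.98, adjusted p = 0.00527), whose adjusted p was 0.0522 without replicate 1 of the mutant rest. Others that are much used as examples of miR-124 targets did not pass. ptbp1a, a splicing repressor, had 366.7, 474.1 and 439 in mutant CNS cells and 459.1, 426.3 and 471.9 in the mutant rest, and the phosphatase ctdsp1 had 309.4, 382.2 and 356.3 in mutant CNS cells and 368.1, 345.4 and 405.3 in the mutant rest. The groups overlapped in both (log2 fold change -0.09 each, adjusted p = 0.822 and 0.701), and the interactions missed the threshold, at -0.04 and 0.02.

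Reported zebrafish targets of miR-430, the microRNA that clears maternal transcripts, had 5 of 25 members lower (20%) and 1 higher (4%). Over all features 9.03% were lower and 6.49% higher. The chemokines cxcl12a (-1.91) and cxcl12b (-1.92) and the receptor cxcr4a (-1.44), which guide migrating cells, were the largest falls. cxcr4a had 169.8, 103.2 and 67.3 in mutant CNS cells, against 301, 325.6 and 321.1 in the mutant rest, and 15.5, 24.4 and 14.8 in wild-type CNS cells, against 421.7, 230.7 and 325.9 in the wild-type rest (interaction 1.86, SE 0.37, adjusted p = 0.0079). tob1a, an antiproliferative gene, fell by 1.08. No gene of 9 in the germ plasm list passed by limma's test. Of 19 oocyte genes 1 was higher (5.26%), where 6.49% of all features were. nanos3, a germ cell gene, had 5.5, 4.5 and 1.3 in mutant CNS cells, against 37.9, 56.5 and 72.2 in the mutant rest. The groups did not overlap, but the gene did not pass (-1.83, SE 0.93, adjusted p = 0.226). That SE rests on a spread shared over all groups, so it is not the spread of the mutant arrays alone. The germ plasm list summed to 731.2, 4250.4 and 959.3 in the wild-type rest, against 729.7, 741.8 and 937.4 in the mutant rest. The mutant arrays were also fitted alone, but how much of the SE came from the other arrays was not worked out.

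Stress and dissociation genes are given because cell sorting can raise them. Of 55 immediate early and dissociation genes, 1 was higher (1.82%) and 14 lower (25.5%) in mutant CNS cells. The early response gene fosab had 3483.4, 3631.9 and 3030.9 in mutant CNS cells and 3273.5, 2931.2 and 3287.8 in the mutant rest, with overlapping groups (0.09, adjusted p = 0.703), and jun did not pass (-0.08, adjusted p = 0.802). The lower members included klf2a (-1.02), a flow-responsive factor of vessels, gadd45ba (-1.38) and socs3b (-1.56). Of 26 genes of the p53 pathway and apoptosis, 2 were higher (7.69%) and 3 lower (11.5%). Those shares are near the 6.49% and 9.03% of all features. The polo-like kinases plk2b (-1.18) and plk3 (-0.81) were lower. pmaip1, a pro-apoptotic BH3-only protein, had 15.4, 9 and 10.9 in mutant CNS cells, against 61.4, 76.7 and 56.1 in the mutant rest (-1.54, SE 0.17, adjusted p = 1.46e-06).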

How the data were processed

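The series holds 18 Affymetrix zebrafish arrays, one per sorted sample. The authors deposited intensities made with MAS5, per the submitters' processing notes, and nothing in those notes or in the series matrix used here gives a version or a scaling target. The deposited intensity was used as given, on a linear scale, and log2(intensity + 16) was taken. Of 15617 probe sets, 115 were controls, 10795 had 1 gene symbol, 135 had several and 4572 had none. Of the 10795, 10711 matched RefSeq's gene table, which updated 1 symbol. Probe sets above the 40th percentile of their own array on at least 3 of 18 arrays were kept, 10704 in all, and the one with the highest mean was taken per gene, which left 9548 features. limma 3.58.1 in R 4.3.3 fitted a mean per group over all 18 arrays with 12 residual degrees of freedom and an intensity trend, and Benjamini-Hochberg adjustment was made over the features of one comparison at a time. The interaction is the mutant line's CNS minus rest difference minus that of the wild-type line with the miR-124 reporter. The same limma step was tested on simulated data. Python 3.11.15 made summaries and figures.

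Same-numbered mutant arrays correlated in their residuals at 0.104, 0.275 and 0.297, which by the rule used makes them pairs, whereas the wild-type values were 0.181, 0.003 and -0.086. Fits with that number as a block were alternatives, beside other added constants (1 and 64), no filter, a 60th percentile filter, median centring, quantile normalization, other probe set rules, array weights, fewer arrays and each array left out.

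The comparison and the gene lists were chosen with earlier results of these data known. Genes were named by rule (the 15 largest rises and falls with groups that do not overlap and a symbol that is not a clone, locus or contig name, the 4 smallest adjusted p-values per list in its main direction, the 8 largest interactions each way, the markers, dicer1, and the her4 and mab21 families), except that 71 further list members and si:ch211-132d3.4 were named after their values were seen. Array number limits the precision of every value. No probe or gene sequences were used here.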

Additional observations from a re-analysis of the deposited data

Results flagged for a closer look

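For 39 named genes the difference between CNS cells and rest was not the same in the mutant line and in the wild-type line, by the interaction term of the limma fit with Benjamini-Hochberg adjustment at 0.05. Over all features this term passed for 2.58%. Values are the mutant line's log2 fold change minus that of the wild-type line, and many are of genes chosen for a large interaction.

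Among skin and adhesion genes the term was 2.73 for cldni, 2.56 for tp63, 2.56 for gpa33a, 2.06 for cdh1, 1.99 for krt18a.1, 1.80 for krt8 and 1.26 for spint2. Actin-binding and matrix genes included pfn1 at 2.93, tagln2 at 2.42, postnb at 2.51, tagln3b at 0.85, iqgap1 at 1.62 and the tetraspanin cd9b at 1.46. The protease gene mmp13a had 3.77. Myeloid genes had 2.41 for spi1b, 1.86 for lcp1 and 1.51 for cebpa. Heart, vessel and migration genes had 2.19 for nkx2.7, 1.42 for hand2, 1.36 for plxnd1 and 1.86 for cxcr4a. Crest and neuron genes had 1.44 for snai2, 1.44 for foxd3, 1.49 for sox10, 1.98 for isl1a and 1.34 for isl2a. The kinase gene plk2b had 1.48 and the ligand gene gdf3 had 0.93.

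The term was below 0 for aldh1a2 (-2.58), gja1b (-2.27), vox (-1.90), gulp1a (-1.75), rx2 (-1.72), mllt3 (-1.49), iscub (-1.47), hoxa9b (-1.29), glula (-1.26), nr2e1 (-0.99) and cdh2 (-0.75). For nr2e1 the CNS cells were higher than the rest in both lines, with 320.6, 322.7 and 322.3 in wild-type CNS cells, against 13.9, 23.5 and 24.3 in the wild-type rest. glula was lower in CNS cells of both lines, with 406.3, 405.1 and 413.5 in wild-type CNS cells, against 552.5, 608.6 and 592.9 in the wild-type rest. For lcp1 both mutant fractions were near 0, so its term rests on the wild-type rest arrays.

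Not every one of these calls was stable. Those of cd9b, cdh2, gdf3, mllt3, nr2e1, plk2b, sox10, spint2, tagln3b and vox were each lost without 4 to 10 of the 12 arrays in turn, and over all alternatives their adjusted p reached 0.123, 0.124, 0.341, 0.148, 0.111, 0.0913, 0.181, 0.130, 0.0827 and 0.0718. That of gdf3 was also lost with the replicate block (adjusted p = 0.0597). The call of isl1a was lost without replicate 1 of the wild-type CNS cells and with an added constant of 1 (adjusted p up to 0.0979). With that constant cebpa (0.0600), hoxa9b (0.0900), rx2 (0.174) and tp63 (0.0503) were lost as well. The other 24 kept their call in every alternative that tested them.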

How the results depend on the processing

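The calls between mutant CNS cells and mutant rest, 1482 in all, were 1125 to 1343 when each mutant array was left out in turn (428 to 576 higher, 673 to 810 lower). They were 2411 with array weights (1122 higher), 2199 on the mutant arrays alone (1002 higher), and 2670 on those arrays with the replicate block (1291 higher, 1379 lower). The replicate block over all 18 arrays gave 1694. Median centring left 1561 calls but made 50.1% of them higher, against 41.84% without it, and moved the median of all features by less than 0.1. The interaction calls, 246 in all, were 141 to 317 when each array of the 4 groups was left out (123 to 274 higher, 17 to 43 lower). They were 380 with the replicate block (64 lower). The 29 lower interactions were 15 with an added constant of 1, 46 with one of 64, 46 with median centring, 64 with array weights and 52 on the lines with the miR-124 reporter alone. Of 204 called fold changes of named genes none changed sign under any alternative run. Of the 38 not called, 9 took both signs (cdh2, crestin, drosha, gpa33a, hoxd4a, jun, lcp1, ptbp1a and tp63). Median centring turned the medians of the miR-430 target and p53 lists to 0.03 and 0.05, against -0.03 and -0.02. For 19 called named genes the probe sets differed by over 1 on the log2 scale or did not all pass. Of the 204, the added constant of 64 shrank 71 by over 1.5 times and that of 1 enlarged 52. Leaving out 1 array lost between 7 and 14 of these calls, and the replicate block lost 2, sox3 and orc5. The cause of these shifts was not tested. Dim genes are limited by signal near background, where the added constant sets the size of a change.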
